A study of Solanum lycopersicum with 18 samples.

Results

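Pectinesterase genes of tomato (*Solanum lycopersicum*) are described here by their RNA in shoot apices, as far as a table of pooled means allows. The group was chosen by gene identifier and has 7 members: 3 on chromosome 2, namely Solyc02g080200, Solyc02g080210 and Solyc02g080220, 3 in a cluster on chromosome 7, namely Solyc07g064170, Solyc07g064180 and Solyc07g064190, and *PMEU1* (Solyc03g123630). Of these, 3 were found among the 35825 genes of the deposited RNA-seq table as held here, Solyc02g080200, Solyc02g080220 and Solyc07g064190. The other 4 members, *PMEU1* among them, were not analysed here.

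Pectinesterases, or pectin methylesterases, are enzymes of the plant cell wall. They remove methyl groups from homogalacturonan, the main pectin of the wall. Demethylated pectin can be cross-linked by calcium, which stiffens the wall, or can be cut by polygalacturonases and pectate lyases, which loosens it. Plants carry many pectinesterase genes, and in tomato the family is best known from ripening fruit.

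Solyc02g080220 is the member for which the study designed a primer pair for qRT-PCR. The pair is printed because it is the one sequence that ties a member to a further assay of its RNA. Both primers are written 5′ to 3′ and are named by the letters the study gave them.

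Solyc02g080220 primer R: gcaacggttgataacggact
Solyc02g080220 primer L: aggacttccttggttgat

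Primer R has 20 bases, of which 10 are G or C, and primer L has 18 bases, of which 8 are G or C. The study's text and figure legends give no qRT-PCR result for this gene, and none was analysed here.

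RNA was sequenced from shoot apices with expanding leaves, taken from plants of 28 days. There were 7 libraries of *crel* mutants, 3 from *crel-1*, 2 from *crel-2* and 2 from *crel-3*, and 3 libraries of wild type, the M82 line. *CRAWLING ELEPHANT* (*CREL*) encodes a PHD-finger protein of the VIL family, which helps to bring Polycomb Repressive Complex 2 to its targets. By the study, *crel-2* is a deletion made by fast neutrons. The names *crel-1* and *crel-3* are those of the sample labels and of the study's methods. The study's supplement names the same lines *crel-5* and *crel-4*, so which alleles these libraries carry, and how they arose, is not settled. H3K27me3, the mark that Polycomb Repressive Complex 2 deposits, was measured in 2 *crel* and 2 wild-type libraries, each group with 2 input libraries. By the study, the *crel* plants used for H3K27me3 were *crel-2*.

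The deposited RNA-seq table has 1 mean normalized count for each gene, which the authors took over all 10 libraries, *crel* and wild type together. It has no column for a single library. The value of a gene in *crel* apices cannot be separated from its value in wild-type apices in this mean. The same table holds the authors' own comparison of *crel* with wild type, with fold changes, errors and p-values, which was set aside and not used here. From the means alone, no comparison of genotypes, no spread between replicates and no test could be had for the pectinesterase genes. For the same reason the mean of *CREL* offers no check of the genotypes. The deposited H3K27me3 peaks carry sequence names of the SL2.40 build, whereas the study's methods name SL3.0, so the build of their positions is not settled. No positions of the members on SL2.40 were held here, and no peak was assigned to any of them. The study's own assignment of lost and gained sites to genes was not used.

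All 3 members that were found had reads in shoot apices, though the mean does not tell in which libraries. Solyc02g080220 had the authors' mean normalized count of 1543, and 94.8% of the genes in the table had a lower mean count. Solyc02g080200, from the same group on chromosome 2, had the authors' mean of 766, with 88.6% of genes below it. Solyc07g064190, of the chromosome 7 cluster, had the authors' mean of 55.7, with 55.3% of genes below it. For scale, the median of the authors' means over all genes was 32.3, and 1402 genes were listed at 0. Both chromosome 2 members that were found were thus among the genes with many reads. By rank, the chromosome 7 member lay near the middle of the table. Of the genes with a mean of at least 10, however, 30.3% had a lower mean than Solyc07g064190. A mean normalized count grows with the length of a transcript, and no transcript lengths of the members were held here. These values tell how many reads a gene collected. They do not rank the members by transcript abundance.

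**Figure D1:**
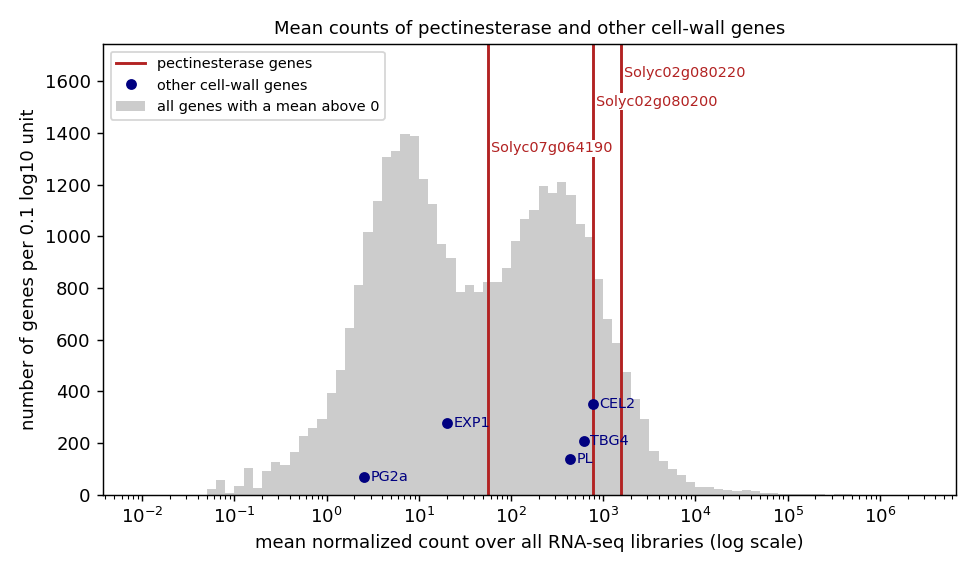
Number of genes (vertical axis) by the authors' mean normalized count over all 10 RNA-seq libraries (horizontal axis, log scale), for genes with a mean above 0. Red lines mark the 3 pectinesterase genes at 55.7, 766 and 1543, and blue points mark 5 other cell-wall genes, whose height has no meaning. Solyc07g064190 lies near the middle of the distribution by rank, in the dip between its peaks, and both chromosome 2 genes lie in its upper part.

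The counting error of these means could be bounded from the low end of the table. A mean normalized count is a sum of whole reads, and each read adds a fixed amount that depends on its library. Among 739 genes with a mean above 0 and up to 0.5, there were 8 values that were no sum of smaller ones and that at least 2 genes shared. They ran from 0.055 to 0.204 and were taken as the amounts that 1 read adds. The lowest and the highest were each shared by only 2 genes. Further such values, at 0.13, 0.294, 0.319, 0.342 and 0.381, were each seen in 1 gene alone and were not used. With them there are more values than the 10 libraries, so not all can be the amount of 1 read. If the 8 shared values are the amounts of 8 libraries, those of the other 2 libraries were not found in this way. The bounds that follow then hold if neither lies outside the range from 0.055 to 0.204. None of these amounts can be given to a named library.

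With this range, the mean of Solyc02g080220 rested on 7560 to 28031 reads over the 10 libraries. The mean of Solyc02g080200 rested on 3756 to 13928 reads, and that of Solyc07g064190 on 273 to 1012 reads. The counting error of the mean, as a Poisson SD, was then at most 1.15% for Solyc02g080220 and 1.63% for Solyc02g080200. For Solyc07g064190 it was at most 6.05%, which is 3.37 on its mean of 55.7. These SDs are upper bounds only if the counted reads are independent. The study's methods do not say whether both reads of a pair were counted, or whether duplicates were removed from these libraries. The lower bounds on the reads depend on the largest amount. With 0.381, the largest such value of a single gene, which was tried after seeing the data, they fell to 4046 reads for Solyc02g080220, 2011 for Solyc02g080200 and 146 for Solyc07g064190. These bounds cover counting error only. They say nothing of the spread between plants, lines or genotypes, which the pooled mean hides.

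The genes next to the members were described by the order of their identifiers, which in tomato follow the chromosome. On chromosome 2, 5 genes on each side of the pectinesterase identifiers had mean counts between 10.9 (Solyc02g080180) and 1288 (Solyc02g080260), with a median of 42.5. The mean of Solyc02g080220 was above those of all 10 of these neighbours, and that of Solyc02g080200 was above 9 of them. The table as held had no other gene between the identifiers of these members. On chromosome 7, the 10 neighbours ran from 3.75 (Solyc07g064220) to 30567 (Solyc07g064160), with a median of 81.5. The mean of Solyc07g064190 was above 5 of them. Mean counts of neighbours, like those of the members, are not corrected for length.

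**Figure D2:**
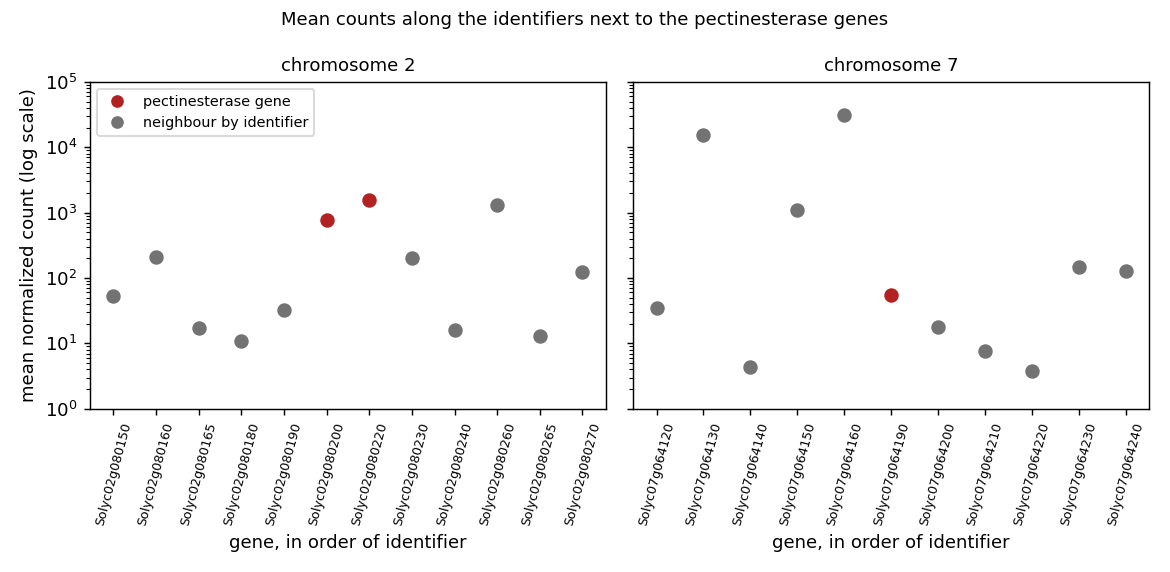
The authors' mean normalized count (vertical axis, log scale) of the pectinesterase genes (red) and of the 10 genes nearest by identifier (grey) on chromosome 2 (left) and chromosome 7 (right), in order of identifier. On chromosome 2 the red point at 1543 lies above all grey points and the one at 766 below only Solyc02g080260 at 1288, whereas on chromosome 7 the red point at 55.7 lies among the grey ones.

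In the RefSeq gene table of the SLM_r2.1 assembly, the pectinesterase genes *PE1*, *PME2.1* and *PME3* follow each other on chromosome 7 with 0 genes between them. That table pairs none of its genes with identifiers of the kind used in the RNA-seq table (0 matched), so no RefSeq name was given to Solyc07g064190.

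All 5 genes of a fixed list of other wall-modifying enzymes and proteins were in the table, and they are best known from fruit softening. *PG2a* (Solyc10g080210), the polygalacturonase of ripening fruit that cuts demethylated pectin, had the authors' mean normalized count of 2.57, with 15.0% of genes below it. *PL* (Solyc03g111690), a pectate lyase that also cuts demethylated pectin, had the authors' mean of 441, with 81.5% of genes below it. *TBG4* (Solyc12g008840), a beta-galactosidase that trims galactan side chains, had the authors' mean of 616, and *CEL2* (Solyc09g010210), an endoglucanase, had 771. *EXP1* (Solyc06g051800), an expansin, which loosens walls without cutting them, had the authors' mean of 20.4. The percentages of genes below these 3 were 86.0% for *TBG4*, 88.7% for *CEL2* and 45.3% for *EXP1*.

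Genes that mark a shoot apex with leaves were all listed above 0. So were all but 1402 of the 35825 genes, so a mean above 0 is no check of the tissue. The meristem genes *TKN1* (Solyc04g077210) and *TKN2* (Solyc02g081120), of the KNOX family, had the authors' mean normalized counts of 48.3 and 57.5. The percentages of genes below them were 53.9% and 55.6%. *WUSCHEL* (Solyc02g083950), which is active in a few stem-cell organizing cells, had 8.45, with 33.0% of genes below it. A Rubisco small subunit gene (Solyc02g063150), which marks green leaf tissue, had 43496, with 99.9% of genes below it. In bulk tissue, the number of cells that express a gene and the RNA of the gene per cell cannot be told apart, which holds for the pectinesterase genes as well.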

How the data were processed

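Total RNA libraries were sequenced as paired ends. Trimming was done by the authors with Trimmomatic, mapping to the SL3.0 build with STAR and counting per gene with featureCounts. Versions are not given in the sources used here. The value used is the mean normalized count deposited by the authors, a signal from DESeq2: each library's count was divided by that library's size factor and the quotients were averaged over the 10 libraries. The table also holds the authors' fold changes, their errors, p-values and calls for *crel* against wild type, which were not used. The depth of single libraries cannot be read from the file.

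H3K27me3 peaks, called per replicate by the authors with HOMER, carry SL2.40 names although the methods name SL3.0. They were not used, because the members' positions on SL2.40 were not held, and the study's own links of sites to genes were not used either.

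Members and lists were chosen with earlier results of these data known. All members found are named, as are the 5 cell-wall genes, the tissue markers and the highest and lowest neighbour of each group. Values were tallied with Python 3.11.15 and numpy 2.4.6. The amount that 1 read adds to a mean was sought among means up to 0.5, with a tolerance of 1.5e-07 on sums. The search was tested only on simulated data in which every library had genes with 1 read, which leaves the case met here, with 2 libraries not found, untested. The counting SD is the square root of the mean times the largest such amount, which takes the counted reads as independent. Primers were copied from the study's primer list. Alternatives changed the genes behind each percentage and the amount 1 read adds.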

Additional observations from a re-analysis of the deposited data

How the results depend on the processing

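The percentage of genes with a lower mean count depends on the genes it is taken over. For Solyc02g080200 it was 88.2% over genes with a mean above 0, 87.6% with a mean of at least 1 and 82.3% with a mean of at least 10. For Solyc02g080220 it was 94.3% with a mean of at least 1, 91.9% with a mean of at least 10 and 95.3% over chromosome 2 alone. For Solyc07g064190 it was 53.4% over genes with a mean above 0, 51.3% with a mean of at least 1, 30.3% with a mean of at least 10 and 52.5% over chromosome 7 alone. The lower values under a minimum mean follow from leaving genes with low means out of the count. If the largest low value of a single gene, 0.381, was taken as the amount that 1 read adds, an alternative chosen after seeing the data, the counting SD was at most 1.57% for Solyc02g080220, 2.23% for Solyc02g080200 and 8.27% for Solyc07g064190, and the lowest number of reads behind the mean of Solyc07g064190 was 146 in place of 273. These SDs also take the counted reads as independent. No paired analysis was possible because the deposited table has no column for a single library. For the same reason the planned test of *crel* against wild type on counts was not run. Levels per length, the reads of single libraries behind the members' means, which are too high to be resolved, and the peaks at the members were not run either.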
